A study of Mus musculus with 4 samples.

Results

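The intronic regions described here were open in the pair of BPA libraries and in no control library of an ATAC-seq experiment on visceral fat. The mice were of the outbred CD-1 stock. They were selected on the presence of peaks, so their presence in BPA and absence in control is the rule and not a finding. The 4 deposited peak lists (chromosomes 1 to 19) were pooled and overlapping peaks were merged into 144187 regions. Of these, 64525 lay over 500 bp from every curated RefSeq start site with their midpoint in an intron of a curated transcript, and 6976 of the 64525 (10.8%) had a peak in both BPA lists and in neither control list. They are called BPA-only intronic regions below. The same rule with the groups exchanged gave 3474 control-only intronic regions (5.38%), which were used with the 12711 intronic regions open in all 4 libraries as the sets for comparison.

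There were 2 libraries per group, each from a single mouse. The groups differ in what the pregnant founders (F0) were injected with, into the abdomen and each day between embryonic days 7.5 and 13.5. In the BPA group this was bisphenol A (BPA) at 50 mg/kg, and in the control group sesame oil. The mice sampled were untreated descendants, which the sample labels place in generation F3 and the paper's text in F4, and the age stated for the mice is 8 weeks. Neither sex nor a processing batch is labelled, so neither can be told apart from the groups.

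ATAC-seq uses a transposase that inserts adapters where DNA is not covered by nucleosomes, and sites with many insertions are called as peaks. Introns hold many of the enhancers of a genome, short sequences bound by transcription factors, and an enhancer in an intron may act on its host gene or on a neighbour. BPA is used to make plastics and can bind estrogen receptors. Visceral adipose tissue holds adipocytes beside endothelial cells, pericytes, fibroblast-like progenitors, macrophages, lymphocytes and, at its surface, mesothelial cells, and in whole tissue a change in the number of cells of a type and a change in accessibility per cell cannot be told apart.

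The sequences of 8 of the best-ranked BPA-only intronic regions are given here. A region was ranked by the poorer of its 2 ranks by q-value in the BPA lists. The best-ranked region in Flt1, the endothelial VEGF receptor gene with 10 such regions, was added after its values were seen. Each window holds the summit base and 100 bases on either side and is given on the plus strand of mm10 (GRCm38), with capitals at the searched transcription factor motifs that are named after the sequences. The TGACC motif, which was searched for too, is left in lower case.
Bicd2, intron 3 of 8, chr13:49371542-49371742: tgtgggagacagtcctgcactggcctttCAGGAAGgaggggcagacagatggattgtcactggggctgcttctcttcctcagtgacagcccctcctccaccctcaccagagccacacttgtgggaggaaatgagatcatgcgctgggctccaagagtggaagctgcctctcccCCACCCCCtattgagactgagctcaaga
Plcg1, intron 32 of 33, chr2:160766420-160766620: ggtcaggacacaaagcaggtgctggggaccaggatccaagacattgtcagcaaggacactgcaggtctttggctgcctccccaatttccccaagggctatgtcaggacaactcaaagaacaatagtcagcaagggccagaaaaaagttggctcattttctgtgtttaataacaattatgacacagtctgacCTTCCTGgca
Tmem63a, intron 8 of 22, chr1:180957072-180957272: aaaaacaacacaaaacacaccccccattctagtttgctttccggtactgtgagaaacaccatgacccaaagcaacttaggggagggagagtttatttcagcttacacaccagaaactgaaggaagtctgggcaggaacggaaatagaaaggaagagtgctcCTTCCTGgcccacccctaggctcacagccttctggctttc
Cdh13, intron 1 of 13, chr8:118394118-118394318: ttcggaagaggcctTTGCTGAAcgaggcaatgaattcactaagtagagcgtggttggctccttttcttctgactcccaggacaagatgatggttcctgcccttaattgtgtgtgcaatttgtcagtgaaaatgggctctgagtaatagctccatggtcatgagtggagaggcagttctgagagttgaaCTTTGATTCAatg
Lnx1, intron 2 of 10, chr5:74679760-74679960: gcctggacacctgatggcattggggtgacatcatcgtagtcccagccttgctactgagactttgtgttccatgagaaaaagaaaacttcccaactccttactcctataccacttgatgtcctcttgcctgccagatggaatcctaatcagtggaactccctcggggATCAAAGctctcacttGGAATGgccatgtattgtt
Parvb, intron 1 of 12, chr15:84235755-84235955: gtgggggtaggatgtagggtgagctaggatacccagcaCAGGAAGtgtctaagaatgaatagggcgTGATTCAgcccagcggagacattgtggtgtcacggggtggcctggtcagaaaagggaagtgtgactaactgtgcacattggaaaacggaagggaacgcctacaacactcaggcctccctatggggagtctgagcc
Gmeb1, intron 3 of 10, chr4:132247560-132247760: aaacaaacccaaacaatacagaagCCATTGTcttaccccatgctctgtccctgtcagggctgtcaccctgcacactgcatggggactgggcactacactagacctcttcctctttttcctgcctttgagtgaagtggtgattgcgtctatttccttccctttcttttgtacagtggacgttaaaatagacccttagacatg
Slc7a1, intron 6 of 12, chr5:148342407-148342607: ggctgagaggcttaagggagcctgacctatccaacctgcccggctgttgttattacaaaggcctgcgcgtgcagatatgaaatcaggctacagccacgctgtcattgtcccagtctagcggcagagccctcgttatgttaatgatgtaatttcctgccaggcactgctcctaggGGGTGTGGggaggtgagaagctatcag
Flt1, intron 10 of 29, chr5:147657989-147658189: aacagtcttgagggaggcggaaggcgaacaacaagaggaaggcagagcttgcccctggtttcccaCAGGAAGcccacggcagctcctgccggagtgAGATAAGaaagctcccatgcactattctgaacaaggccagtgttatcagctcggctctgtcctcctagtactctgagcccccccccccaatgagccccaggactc

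The capitals in Bicd2 mark an ETS motif and a KLF and SP motif, and those in Plcg1 and Tmem63a an ETS motif each. In Parvb they mark an ETS and an AP-1 motif, in Gmeb1 a SOX motif and in Slc7a1 a KLF and SP motif. In Cdh13 they mark a C/EBP motif and overlapping TCF/LEF and AP-1 motifs, in Lnx1 a TCF/LEF and a TEAD motif, and in Flt1 an ETS and a GATA motif. The short TGACC motif, not in capitals, is in the windows of Plcg1, Tmem63a, Cdh13, Parvb and Slc7a1. The Afap1l1 region, which ranked 4 and is not shown, held none of the searched motifs. A motif is a run of mm10 letters and not a measured binding site. The paper reports many variants of CD-1 mice against mm10, some of them between CD-1 animals. The windows and motifs here and below were not checked against them, so the sequence of the sampled mice may differ.

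The best-ranked members were chosen by q-value in the 2 BPA lists, so high folds follow in part from the choice. The first was in intron 3 of Bicd2, an adaptor of the dynein motor, at chr13:49371195-49372674, 30386 bp from the start site of the host. Its fold over local background, as the peak caller gives it, was 11.1 in BPA 1 and 7.54 in BPA 2, and its −log10 q-values were 68.8 and 101.2. The next were intron 32 of Plcg1, the phospholipase that acts downstream of receptor tyrosine kinases, with folds of 10.9 and 8.49, and intron 8 of Tmem63a, a membrane protein gene, with 13.8 and 11.4. In intron 1 of Afap1l1, which encodes an actin-binding adaptor, the folds were 11.3 and 10.4, and in intron 1 of Cdh13 they were 10.3 and 9.52. The other 7 named by the same ranking were in Lnx1, Parvb, Gmeb1, Slc7a1, Tmem184b, Prdm16 and Dysf. Among them Gmeb1 had the highest folds (14.2 and 11.4) and Parvb the lowest (7.33 and 5.55). Prdm16 encodes a regulator of the brown fat program, and its region in intron 10 had folds of 10.4 and 9.03. All 12 lay within the best 13.4% of peaks of both lists, with Bicd2 at 9.89% as the best.

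Most members were weaker than these. Their median fold over local background was 4.77 in BPA 1 and 4.66 in BPA 2. The median pile-ups, recovered from the fold and p-value, were 14 and 38. The regions open in all 4 libraries had median folds of 5.88 in BPA 1 and 5.80 in BPA 2, and 4.26 and 4.96 in the controls. The control-only intronic regions had 3.66 and 3.87. The median member stood at 66.8% of the BPA 1 list and 51.7% of the BPA 2 list, counted from the best peak. Only 265 of the 6976 were in the best 25% of both BPA lists, and 1652 were in the best 50% of both. For the 3474 control-only regions and the control lists these counts were 45 and 615. The plot of library patterns shows these medians beside the number of regions in each pattern.

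**Figure D1:**
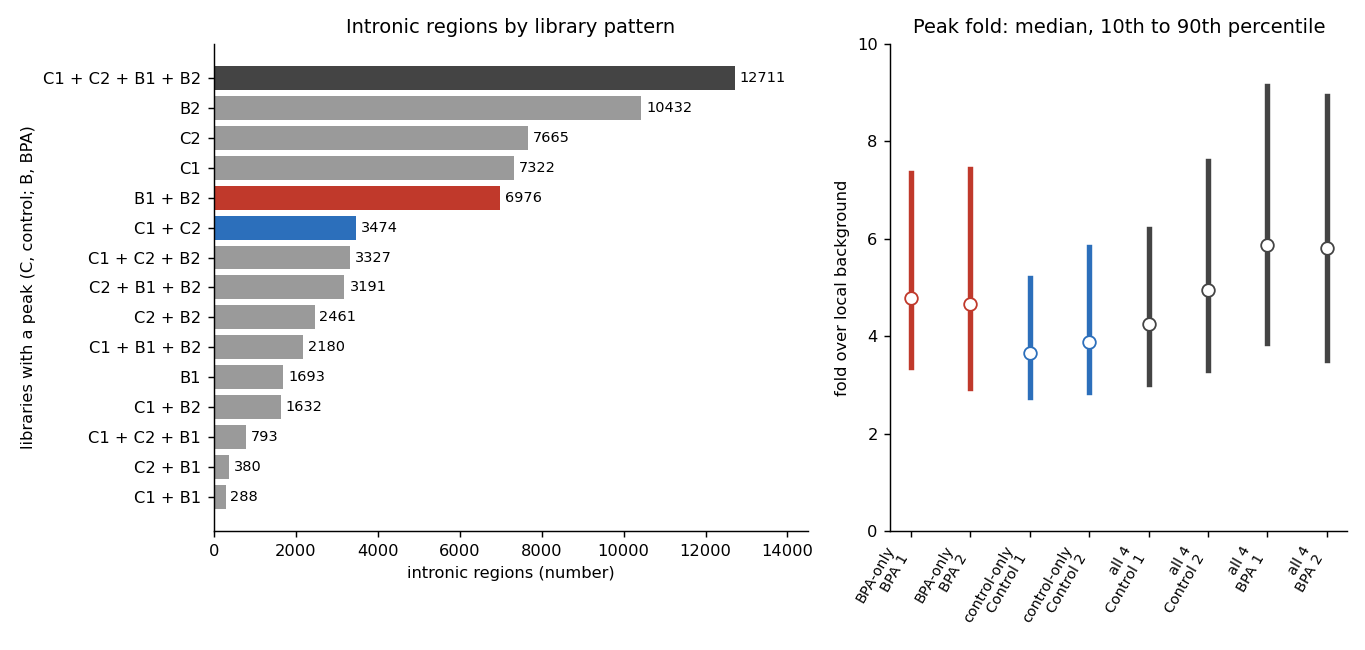
Left, the number of intronic regions (x axis) with a peak in each combination of the 2 control (C) and 2 BPA (B) libraries, with BPA-only in red, control-only in blue and all 4 libraries in dark grey. Right, the fold over local background of these sets in each library that has them, as the median (circle) and 10th to 90th percentile (bar). The 6976 BPA-only regions have medians of 4.77 and 4.66, above the control-only and below the all-4 regions in the same animals.

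The border of the set was a matter of the peak caller's threshold, a −log10 q of about 1.3 in each list. Just inside it, a region in intron 5 of Hip1 was a member with a −log10 q of 1.31 in BPA 1 and 2.14 in BPA 2, followed by intron 1 of Septin11 (1.31 and 12.7). Just outside it, a region in intron 9 of Dcun1d4 (1.38 and 7.1) was left out by a control peak of 1.33, and a region in intron 7 of Asb14 (5.92 and 16.8) by a control peak of 1.34. A further 5371 intronic regions had both BPA peaks and a peak in a single control library, 2180 of them in control 1 and 3191 in control 2. The median distance from a member to the nearest control peak was 5166.5 bp, and 534 members (7.65%) had a control peak within 1 kb. The lists give no value where no peak was called, so the control signal at the members is not known.

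BPA-only regions were about as frequent in introns as between genes, and less frequent near start sites. Of the 13673 BPA-only regions at any location (9.48% of all merged regions), 51.0% were intronic, 40.6% intergenic, 4.91% within 500 bp of a start site and 3.47% exonic only. Of the 7616 control-only regions at any location (5.28%), 45.6% were intronic, 50.5% intergenic and 1.59% within 500 bp of a start site. Of all merged regions at each location, 10.8% of intronic, 9.21% of intergenic and 11.2% of exonic-only regions were BPA-only. Within 500 bp of a start site 4.42% were BPA-only, 0.798% were control-only and 79.4% were open in all 4 libraries. The ratio of BPA-only to control-only intronic regions was 2.01, and it depended on how peaks were taken. It was 1.24 with the 20000 best peaks per library, 1.67 with equal numbers of peaks and 3.79 at a −log10 q of at least 5. It was 0.806 without control 1, 0.936 without control 2, 4.08 without BPA 1 and 1.36 without BPA 2, where a group of a single library also has the looser rule. With 2 mice per group an exact permutation test over samples cannot pass the usual threshold, and no test was run. All intervals below are 95% Wilson intervals that cover counting error only and treat neighbouring regions as independent. Of the members, 1676 (24.0%) lay within 10 kb of another, so they were not.

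The members did not gather in the first intron, the part of a gene where many known enhancers lie. They were in the first intron in 27.6% of cases (26.6 to 28.7%), in the second in 18.2%, in the third in 10.9% and in a later one in 43.3%. For the first intron the shares were 28.1% in control-only regions, 28.9% in regions open in all 4 libraries and 27.9% in all intronic regions that were not members. First introns held 25.5% of the intronic bases in the longest transcripts of 11178 host genes. The intervals of the members and of all the others overlap, so a difference in intron number was not detectable here.

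Control-only regions lay in longer genes, with more of them both far from and close to the start site. The median member lay 46900 bp from the start site of its host, against 55890 bp for control-only regions and 44614 bp for regions open in all 4 libraries. The median host transcript was 115408 bp long for members and 149320 bp for control-only regions, and the median intron 21834.5 and 28769 bp. In 27.7% of members (26.6 to 28.7%) the host's start site was over 100000 bp away, against 34.2% (32.6 to 35.8%) of control-only regions. In 4.56% of members (4.09 to 5.07%) it was within 5000 bp, against 6.28% (5.52 to 7.13%) of control-only regions. The fifth of the host transcript nearest its start site held 16.8% of members (16 to 17.7%) and 21% of control-only regions (19.6 to 22.3%). For 67.2% of members the nearest curated start site of any gene was one of the host gene, against 69.2% of the intronic regions that were not members.

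G+C content separated the sets more than position did. The window of 100 bp on each side of the summit had a median G+C of 49.8% in members, 44.3% in control-only regions and 49.3% in regions open in all 4 libraries. Across 10 groups of intronic regions ordered by G+C, the share that was BPA-only went from 3.47% (3.06 to 3.94%) in the lowest group to 17.0% (16.1 to 18%) in the highest. The control-only share went the other way, from 7.75% (7.13 to 8.42%) to 2.15% (1.81 to 2.55%). The order of the groups thus crossed, with more control-only than BPA-only regions in the 2 groups of lowest G+C, near-equal shares (7.57 and 7.62%) in the next and more BPA-only regions in the 7 groups of highest G+C. The part that G+C has in the selection of the members was not tested. For this reason the shares of motifs and gene classes in members are set below beside those of all the other intronic regions weighted to the members' distribution over the same 10 G+C groups.

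**Figure D2:**
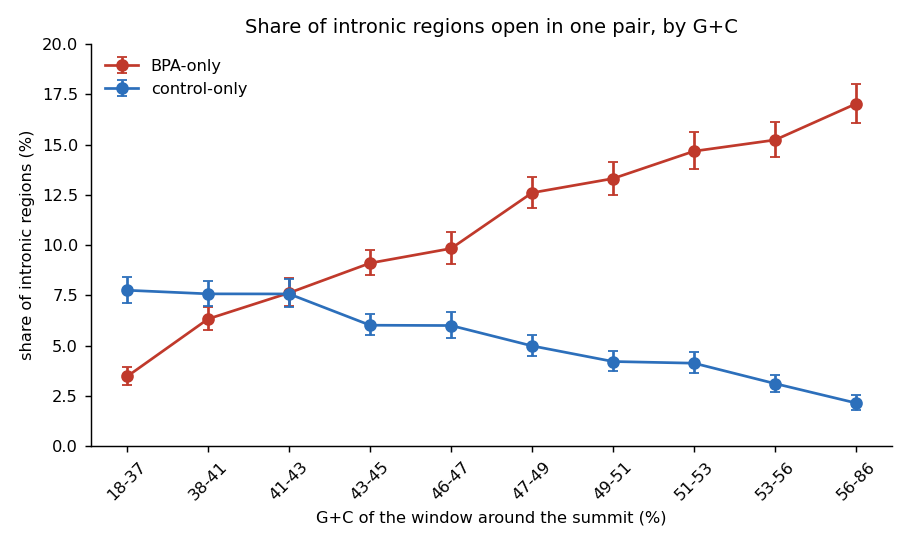
Share of intronic regions that were BPA-only (red) or control-only (blue), in %, by the G+C content of the window of 100 bp on each side of the summit, in 10 groups of similar size; bars are 95% Wilson intervals. The red share rises from 3.47% to 17.0% and the blue share falls from 7.75% to 2.15%.

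Motifs of ETS and SOX factors were more common in members than in other regions of the same G+C. So were the AP-1, E-box, FOX, TGACC and ESRR motifs, whose member intervals also lay above the weighted others and whose shares are given below. The ETS motif (CNGGAAG, N being any base, on either strand) was in 29.4% of the members' windows (28.3 to 30.5%), in 14.6% of control-only windows and in 21.1% of windows open in all 4 libraries. In the other intronic regions weighted by G+C it was in 21.6%, a ratio of 1.36, and in all intronic regions in 20.1%. ETS factors include ERG and FLI1 of endothelial cells and PU.1 of macrophages. The searched letters were not fitted to a single factor, and how far they cover the sites of each, PU.1 among them, was not checked. The SOX motif (ACAATGG) was in 4.60% of members (4.13 to 5.12%), 1.78% of control-only regions and 1.92% of regions open in all 4 libraries, against 2.33% in the weighted others (ratio 1.97) and 2.69% in all intronic regions. SOX factors of the group with SOX17 and SOX18 act in blood vessels. Which factors bind these motifs, and in which cells, was not measured.

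Motifs of NFI, C/EBP and GATA factors, glucocorticoid receptor and CTCF were less common in members than in the weighted others. The GATA values are given with the other motifs below. The NFI motif (TTGGCA) was in 14.6% of members (13.8 to 15.4%), 25.6% of control-only regions and 23.5% of regions open in all 4 libraries, against 19.8% in the weighted others and 18.9% in all intronic regions. The C/EBP motif (TTGCNNAA), bound by factors that drive adipocyte differentiation, was in 10.1% (9.42 to 10.8%), 16% and 15.9%, against 12.5% in the weighted others and 13.5% in all. The palindromic glucocorticoid response element was in 0.588% of members, 1.99% of control-only regions and 1.6% of regions open in all 4 libraries, against 1.21% in the weighted others and 1.08% in all. The CTCF motif was in 1.92%, 3.66% and 3.73%, against 3.26% in the weighted others and 2.69% in all.

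Estrogen receptor elements were rare. The palindromic estrogen response element, searched with its exact letters, was in 3 of the 6976 members (0.0430%, 0.0146 to 0.126%), against 0.0320% of the weighted others and 0.0310% of all intronic regions, a number too small for any comparison. The single TGACC motif, to which estrogen and other nuclear receptors bind and which is short enough to occur often, was in 35.8% of members (34.7 to 37.0%) and 33.1% of the weighted others, and in 31.6% of all. The ESRR motif (TCAAGGTCA) was in 0.473% of members and 0.316% of the weighted others, and in 0.356% of all, a ratio to the weighted others of 1.5 (above that of ETS) that rests on 33 members. The DR1 element of PPAR and RXR was in 4 members (0.0573%), against 0.0641% and 0.0573%.

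Of the other motifs, AP-1 (TGANTCA) was in 13.3% of members (12.6 to 14.2%) and 11.3% of control-only regions. It was in 12.5% of regions open in all 4 libraries and 10.6% of the weighted others, with 10.9% in all intronic regions. The E-box (CAGCTG) was in 19.2% of members (18.3 to 20.1%) and 11.3% of control-only regions. Its share was 17.6% in regions open in all 4 libraries and 16.8% in the weighted others, with 14.7% in all. The motif of GATA factors (AGATAAG) was in 2.45% of members (2.11 to 2.84%) and 6.19% of control-only regions. Its share was 2.68% in regions open in all 4 libraries and 2.99% in the weighted others, with 3.26% in all. FOX (TGTTTAC) was in 3.24% of members and 2.80% of the weighted others, with 3.15% in all. TEAD (GGAATG) was in 13.5% (12.7 to 14.3%) and 14.3%, with 14.0% in all, and EBF in 1.32% (1.08 to 1.61%) and 1.20%, with 1.04% in all. For EBF, for TEAD (at its upper end) and for the remaining 4, the members' interval held the weighted others. These 4 were MEF2 at 2.95% in members and 3.34% in all intronic regions, KLF and SP (GGGNGTGG) at 8.08% and 6.47%, RUNX (TGTGGTT) at 4.96% and 5.04%, and TCF/LEF (CTTTGAT) at 2.55% and 2.82%. The TCF/LEF and AP-1 letters can overlap, as in Cdh13.

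**Figure D3:**
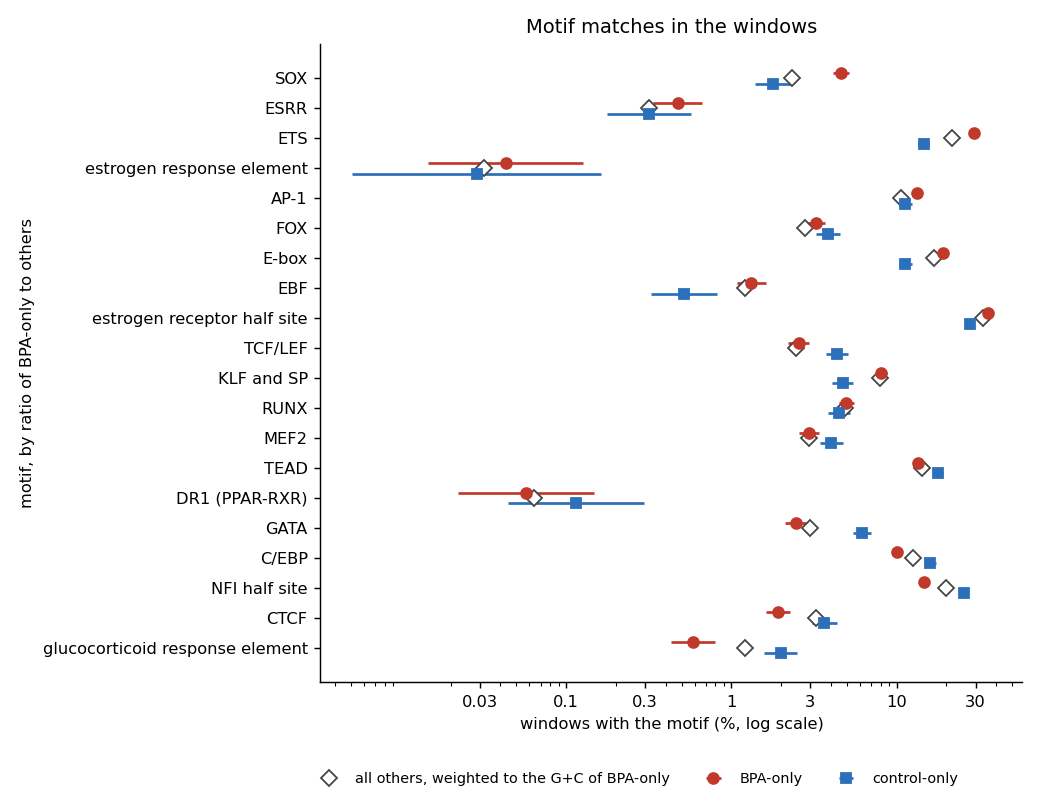
Share of windows (100 bp on each side of the summit) with each motif (x axis, %, log scale) in BPA-only (red circles) and control-only (blue squares) intronic regions, with 95% Wilson intervals, and in all other intronic regions weighted to the G+C of BPA-only (open diamonds). Motifs are ordered by the ratio of red to diamond, from 1.97 for SOX to 0.486 for the glucocorticoid response element.

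The members lay in 3692 host genes of the 11532 with any intronic region. Of these, 2246 held a single member, 1446 held 2 or more, 754 held 3 or more and 35 held 10 or more. Control-only regions lay in 2337 genes, of which 272 held 3 or more, and 1003 genes held regions of both kinds. No control-only region was in 2689 of the 3692 hosts (72.8%), and in 9 of the 35 hosts with 10 or more members (25.7%). The lack of one in a gene named below is read against these shares. Genes with many members were long, with a median host transcript of 68.2 kb over all hosts and 413 kb for the 35 genes with 10 or more, so the count per gene is read against the number of intronic regions of any kind in it.

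Frmd4a, which encodes a FERM domain scaffold of epithelial polarity, held the most members. It had 17 among its 58 intronic regions (29.3%), in 7 of its 24 introns and none in the first, beside 1 control-only region and 10 open in all 4 libraries. The folds of the 17 ran from 3.81 to 8.82 with a median of 5.25 in BPA 1, and from 2.38 to 9.19 with a median of 5.44 in BPA 2. For all 17 the nearest curated start site was one of Frmd4a. Prkce, encoding protein kinase C epsilon, held 16 of 69 (23.2%), 6 of them in its first intron. For none of these was the Prkce start site the nearest, which was that of the noncoding gene 2010106C02Rik for 9 and that of Epas1, the gene of hypoxia-inducible factor 2 alpha, for 7. Cdh13, encoding T-cadherin, a surface protein that binds adiponectin, held 15 of 48 (31.3%) with no control-only region, 8 of the 15 in its first intron.

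Myo1e, encoding a class I myosin, held 14 of 30 (46.7%) with no control-only region and 1 region open in all 4 libraries. Arid1b, a subunit of the BAF chromatin remodeller, held 14 of 64 (21.9%). Syn3, which encodes a synapsin, also held 14, of 57 (24.6%), but the nearest start site was that of Timp3, an inhibitor of matrix metalloproteinases, for 8 of them and that of Syn3 for 2. Magi1, a scaffold of cell junctions, held 14 of 60 (23.3%), 12 of the 14 in its first intron, beside 4 control-only regions. Cdh23, a cadherin known from hair cells, held 13 of 39 (33.3%) with no control-only region, and for none of them was its own start site the nearest. Atxn1, encoding ataxin 1, a protein of transcriptional repressor complexes, held 13 of 65 (20%).

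The highest shares among the 15 genes with most members were in 2 shorter genes. Ties at 12 members were settled by fewer control-only regions, and Foxp1, also with 12, was left out by this rule. Low control-only counts in the named genes with 12 members are thus partly fixed by the choice. Hmcn2, encoding hemicentin 2 of the extracellular matrix, had 12 members among 16 intronic regions (75%), spread over 9 of its 97 introns, with no control-only region and none open in all 4 libraries. Its start site had a peak in BPA 2 alone. The folds of the 12 ran from 3.40 to 9.20 in BPA 1 and from 2.61 to 6.24 in BPA 2. Mical2, encoding a monooxygenase that oxidises actin, had 13 of 20 (65.0%), also with no control-only region. Its folds ran from 2.85 to 7.68 in BPA 1 and from 2.14 to 5.55 in BPA 2. Rgs6, a regulator of G protein signalling, held 12 of 40 (30.0%), Apbb2, an adaptor that binds the amyloid precursor protein, 12 of 43 (27.9%), Auts2, a developmental regulator gene, 12 of 78 (15.4%), and Arhgap26, a GTPase-activating protein, 12 of 65 (18.5%). For 5 of the 12 in Arhgap26 the nearest start site was that of Nr3c1, the glucocorticoid receptor gene.

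The genes with most control-only regions held next to no members. Ptprd, a receptor phosphatase, had 16 control-only regions and 0 members among 99 intronic regions, and Dlg2, a synaptic scaffold, had 15 and 0 among 62. Macrod2 had 11 and 2 of 75, Negr1, a neuronal adhesion protein associated with body weight, 10 and 1 of 49, and Anks1b 10 and 2 of 57. These 5 transcripts were from 755 to 2270 kb long, while the 15 transcripts with most members were from 129 to 1106 kb long. The map of host genes shows regions of both kinds at several places along a gene. They were not spread evenly, as in Magi1, with 12 of its 14 members in the first intron.

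**Figure D4:**
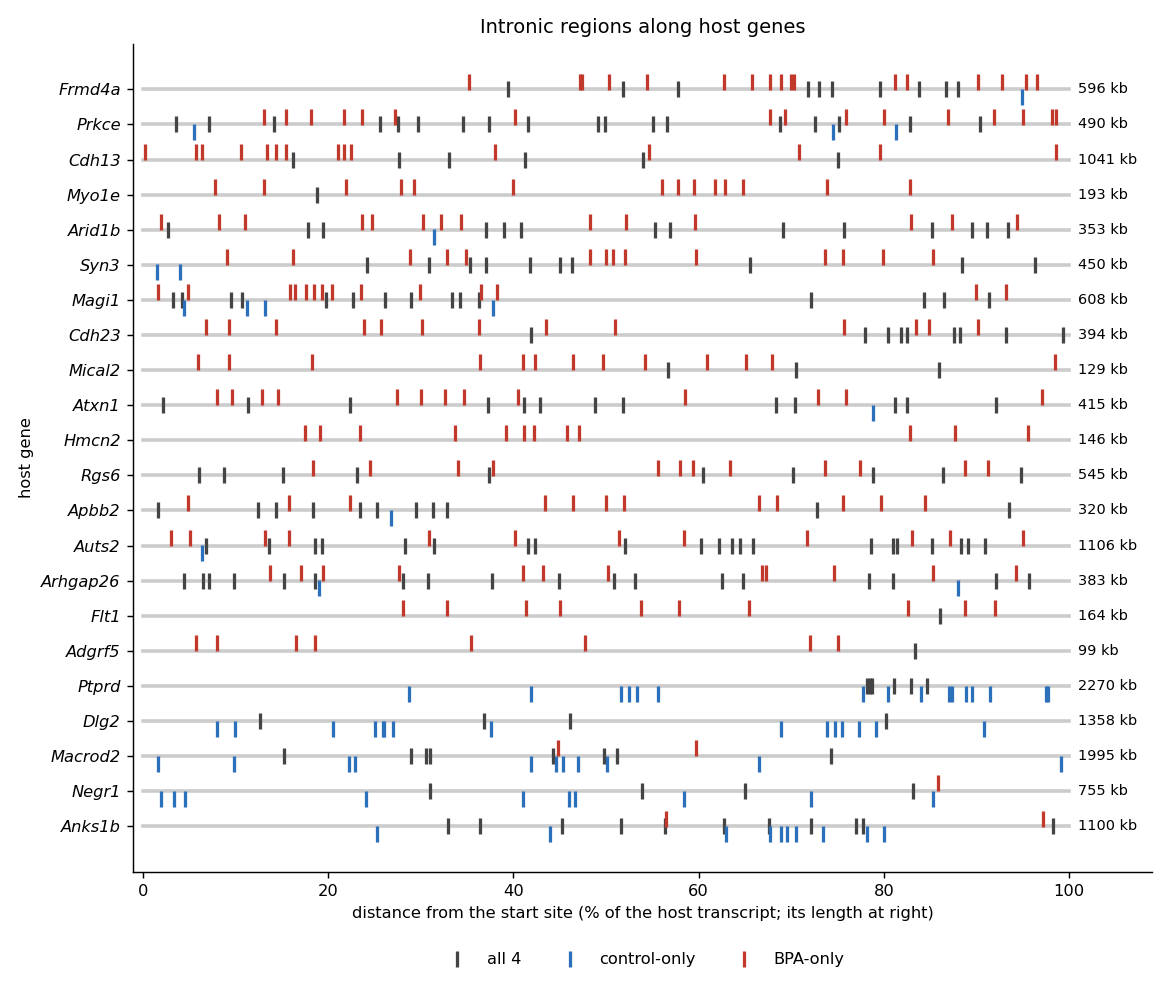
Position of BPA-only (red), control-only (blue) and all-4 (dark grey) intronic regions along the longest host transcript, as distance from the start site in % of the transcript, whose length in kb is at the right. The last Mical2 region lies in an intron of a shorter transcript. From the top are the 15 genes with most BPA-only regions (17 in Frmd4a), then Flt1 and Adgrf5, then the 5 genes with most control-only regions, of which Ptprd and Dlg2 have no BPA-only region.

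The promoters of the host genes were mostly open in every library. A peak within 500 bp of a start site was present in all 4 libraries for 73.7% of the 3692 host genes (72.3 to 75.1%), against 74.8% of the 2337 control-only hosts and 67.4% of all 11532 genes with an intronic region. It was present in the BPA pair alone for 129 host genes (3.49%), and in the control pair alone for 19 (0.515%). In control-only hosts these counts were 45 (1.93%) and 26 (1.11%), and in all 11532 genes 327 (2.84%) and 59 (0.512%). For 11.7% of host genes no library had a promoter peak, against 18.8% of all.

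Endothelial genes had the highest BPA-only share of the 15 gene lists. Of the 235 intronic regions of the endothelial list, 61 (26.0%, 20.8 to 31.9%) were BPA-only, against 10.8% of all intronic regions and 11.9% at the G+C of these 235 regions. The endothelial share was above that of all intronic regions in all 11 other settings tried, by 1.62 times (44.8% against 27.7%, without BPA 1) to 2.95 times (39.5% against 13.4%, best 20000 peaks). These settings cut the same 4 libraries again, so they are not independent support. The list was chosen with earlier results of these data known, and the settings were tried on it after seeing the data. Only 5 (2.13%, 0.912 to 4.88%) were control-only, against 5.38%. The 61 lay in 19 of the 28 listed genes with an intronic region. Without Flt1, Adgrf5 and Mecom, the 3 genes with most, 36 of 170 (21.2%, 15.7 to 27.9%) were BPA-only.

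Flt1, the VEGF receptor 1, had 10 members among 14 intronic regions, in 8 introns and none in the first. Their folds ran from 4.17 to 11.5 with a median of 5.57 in BPA 1, and from 4.58 to 8.88 with a median of 5.59 in BPA 2. Its start site had a peak in control 1 and in both BPA libraries. Adgrf5, an adhesion receptor of endothelium, had 8 of 14, with median folds of 4.97 and 4.58, and its promoter was open in all 4 libraries. Mecom, a transcription factor of arterial and blood stem cells, had 7 of 37, and Erg, the endothelial ETS factor, had 5 of 15. The Erg start site had a peak in each BPA library and in no control.

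The endothelial promoters also moved with the groups, and so did those of macrophage genes. Over all 11532 genes with an intronic region, a promoter peak was present for 73.0% and 71.5% in the controls 1 and 2, and for 74.8% and 78.7% in the BPA libraries. Of the 34 endothelial genes, a promoter peak was present for 16 and 13 in the controls 1 and 2, and for 32 and 33 in the BPA libraries 1 and 2. For adipocyte genes the counts were 32, 32, 31 and 32 of 34 in the same order, as the adipose label calls for. The counts for pericytes and smooth muscle were 9, 8, 12 and 15 of 18, for macrophages 9, 7, 16 and 17 of 19, for progenitors and fibroblasts 21, 21, 23 and 23 of 24, for lymphocytes 6, 3, 4 and 7 of 20, for Schwann cells 7, 7, 6 and 8 of 10, for epithelium 4, 3, 7 and 9 of 15, and for mesothelium 7, 4, 4 and 2 of 10. How far the amount of endothelial or other cells in each sample has a part in the 6976 regions was not tested.

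The VEGF and angiopoietin list had 42 members among 234 intronic regions (17.9%, 13.6 to 23.4%), against 11.3% at their G+C. It shares 6 genes with the endothelial list. Without them the share was 25 of 187 (13.4%, 9.22 to 19%), an interval that holds the 10.8% of all intronic regions. Prkca, a kinase downstream of VEGF receptors, had 8 of 41, Nrp1, a VEGF co-receptor, 6 of 30, and Angpt2, an angiopoietin ligand, 3 of 8. The Notch list had 29 of 213 (13.6%, 9.65 to 18.9%), against 11.7% at their G+C, and its interval also holds 10.8%. Without the 3 genes shared with the endothelial list it had 27 of 206 (13.1%). There were 6 of 52 in Maml2 and 5 of 33 in Maml3, both coactivators of Notch, and 2 of 6 in the receptor gene Notch1.

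The other cell type lists were near the background or rested on few regions. Pericyte and smooth muscle genes had 16 of 112 (14.3%, 8.99 to 22%), 7 of them in Mylk, the myosin light chain kinase, and 3 of 6 in Cspg4, the pericyte proteoglycan NG2. Lymphocyte genes had 12 of 78 (15.4%, 9.03 to 25.0%), with 4 of 15 in Skap1 and 2 of 2 in Cd4. Adipocyte genes had 25 of 260 (9.62%, 6.60 to 13.8%), among them 5 of 19 in Mgll, a lipase of monoglycerides, and 3 of 19 in Pparg, the regulator of adipocyte differentiation. Progenitor and fibroblast genes had 22 of 230 (9.57%), with 6 each in Fbn1 and Zfp423. Macrophage genes had 8 of 84 (9.52%) with 0 control-only regions, 2 of the 8 in Csf1r. Epithelial genes had 3 of 27, Schwann cell genes 2 of 35 and mesothelial genes 1 of 51 (1.96%, 0.347 to 10.3%), the 1 being in Wt1. The mesothelial list was the only 1 of the 15 with a larger control-only than BPA-only share, at 8 of 51 (15.7%, 8.17 to 28.0%).

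Of the other signalling and metabolic lists, 3 had intervals that held the 10.8% of all intronic regions, and the TGF-beta and BMP list lay below it. Insulin signalling genes had 44 of 443 (9.93%, 7.48 to 13.1%), with 8 of 32 in Rptor, the mTORC1 subunit, and 6 of 44 in Igf1r, the IGF1 receptor. Nuclear receptor genes had 36 of 366 (9.84%, 7.19 to 13.3%), with 6 of 71 in Rora, 5 of 11 in Ppard and 5 of 41 in Rarb. Wnt genes had 32 of 301 (10.6%, 7.63 to 14.6%), with 7 of 27 in the transcription factor gene Tcf7l1. TGF-beta and BMP genes had 31 (7.73% of their intronic regions, 5.50 to 10.8%), against 11.4% at their G+C, and 27 (6.73%) were control-only. In that list Eng, a co-receptor of endothelial cells, had 3 of 5, and its promoter was open in the BPA pair alone.

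**Figure D5:**
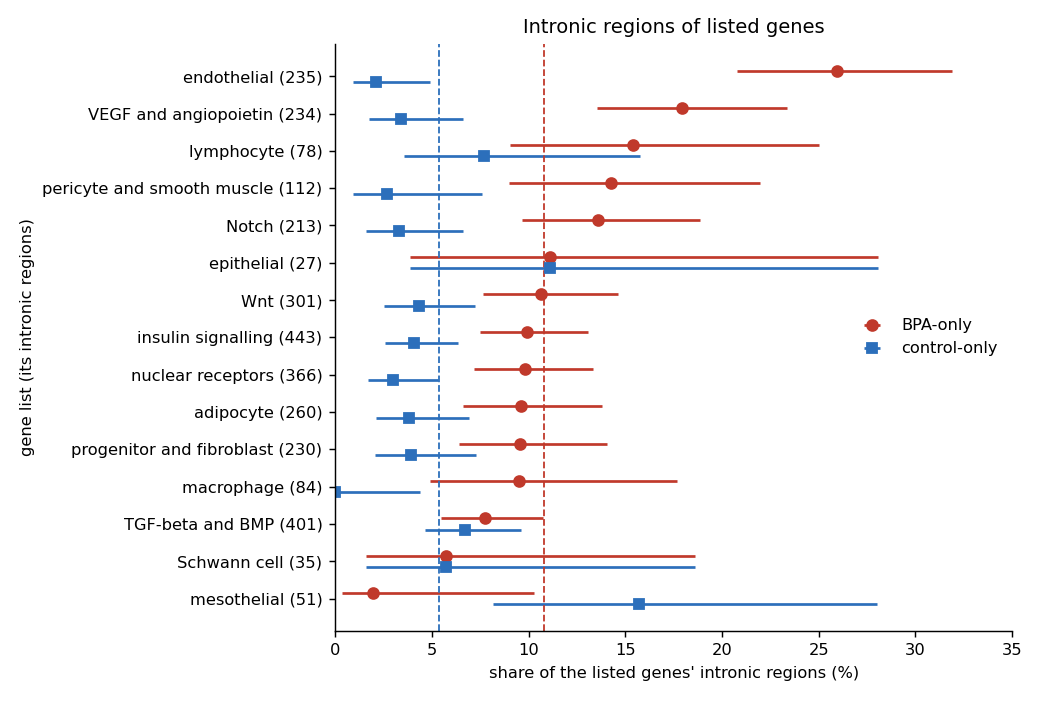
Share of the intronic regions of 15 gene lists (number of regions in brackets) that were BPA-only (red circles) or control-only (blue squares), in %, with 95% Wilson intervals. Dashed lines mark the shares of all intronic regions, 10.8% and 5.38%. The endothelial list is at 26.0% and 2.13%, the mesothelial list at 1.96% and 15.7%.

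The 15 gene classes reported here, made from words in the RefSeq descriptions, had shares in members from 0.557 to 1.20 times those of the other intronic regions once G+C was weighted. Such classes are rough, since Magi1, a membrane-associated guanylate kinase that acts as a scaffold, counts as a kinase. Matrix and adhesion genes made up 3.68% (3.27 to 4.15%) against 3.08%, led by Cdh13, Cdh23 and Thsd4. Kinases made up 7.05% (6.48 to 7.68%) against 6.03%, and actin and myosin genes 3.01% (2.63 to 3.44%) against 2.59%. Chromatin and histone modifiers made up 0.502% (0.361 to 0.697%) against 0.749%, with 6 of the 35 regions in Hdac4. Growth factors and their receptors made up 0.731% (0.557 to 0.960%) against 0.989%.

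For the other 10 classes the ratio of members to weighted others lay between 0.557 and 1.11, the latter for lipid enzymes and carriers. The former was for descriptions with noncoding RNA words, which caught only 6 members. By RefSeq gene type, 289 members (4.14%) had a noncoding RNA host, against 4.67% of the other intronic regions. Transcription factors and zinc finger proteins stood at 5.07% against 4.91%, with 12 members in Foxp1 and 11 in Tcf4. Solute carriers stood at 2.08% against 1.97%, ion channels at 1.92% against 1.73% and phosphatases at 2.15% against 2.44%. Since a few long genes give many regions to a class, these intervals are too narrow, and no difference between classes was tested.

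The share of intronic regions that were BPA-only also varied by chromosome, from 8.12% of 3238 on chromosome 3 to 14.7% of 3903 on chromosome 11, where 3.79% were control-only. On chromosome 3 the control-only share was 7.32%, the highest of the 19. Of the members' windows, 1.52% were repeat-masked over most of their length, against 2.26% of those of the other intronic regions, and 90.2% held at least 1 CG dinucleotide, against 84.3%. In regions open in all 4 libraries these shares were 0.952% and 90.3%, and in control-only regions 1.53% and 83.0%.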

How the data were processed

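ATAC-seq was performed on visceral adipose tissue of 2 control and 2 BPA mice. Per the labels and methods, the authors trimmed reads (Trim Galore), aligned them to mm10 with Bowtie2 2.3.5.1, removed reads without a unique position and PCR duplicates (SAMtools), and called peaks separately in each library with MACS2 2.2.7.1. Caller options and the read shift are not given in the sources used here. The deposited lists hold 72375 to 98060 peaks per library, each with a score (10 times the −log10 q-value in over 99.9% of peaks), a fold, a ratio of pile-up to local background, and the −log10 p-value and −log10 q-value, as the authors deposited them. No read totals were used. Pile-ups were recovered from the fold and p-value, within a relative tolerance of 0.0001 for at least 99.99% of peaks. The lowest local background was 2.85 and 2.70 in the controls and 1.16 and 3.80 in BPA 1 and BPA 2, so the depth behind the lists differed.

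Peaks were merged in Python 3.11.15 (numpy 2.4.6, scipy 1.17.1, pandas 2.3.3). Curated RefSeq transcripts (43783, GRCm38.p6) gave start sites and introns. The host is the gene whose intron holds the midpoint, with introns numbered in its longest transcript that has an intron there. For 104 members several genes did, and all are counted in the numbers of host genes and of members per gene. Positions, nearest start sites and gene classes used a single host per region, a protein-coding gene first and then the longest transcript. Motifs were matched on both strands of mm10 in the 100 bp on each side of the best summit. Pile-up recovery and region sorting were tested on simulated data. Sequences are shown over this window, in place of the 50 bases on each side first planned.

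The members, gene lists, motifs and keyword classes were chosen with earlier results of these data known. Named were the 15 genes with most members and the 12 best-ranked members. Also named were up to 4 genes per list with most members and the 5 genes with most control-only regions. Ties among the 15 were settled by fewer control-only regions, then by symbol. Genes named within classes were chosen after their values were seen. Shares have 95% Wilson intervals, and no test was run. A gene and a gene class are not reported here. Alternatives were another q-value limit, equal or fewer peaks, stricter overlap, other promoter, intron and window definitions, and leaving out each library.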

Additional observations from a re-analysis of the deposited data

How the results depend on the processing

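Of 103 values recomputed with other settings, 69 stayed within their interval or within 1.5 times the count, and 34 moved. None of these reversed, but their ratio did. The ratio of BPA-only to control-only regions (2.01) was added after seeing the data, and fell below 1 without control 1 (0.806, with 9187 and 11396 regions) and without control 2 (0.936, with 10179 and 10873). It was 1.24 with the 20000 best peaks, 3.79 at a −log10 q of at least 5, 4.08 without BPA 1 and 1.36 without BPA 2. Restricted to the 20000 best peaks per library, the lists gave 1328 BPA-only and 1073 control-only intronic regions, a BPA-only share of 13.4%, 1082 host genes, 48 with 3 or more, a median G+C of 51.7%, 30.3% in first introns, and AP-1 and ETS motifs in 14.5% and 33.6%. At a −log10 q of at least 5 there were 1755 control-only regions, the share was 15.1% and ETS 30.5%. With 72375 peaks per library the share was 12.5%. Where BPA peaks had to share 50% of both lengths, 4578 BPA-only and 2136 control-only regions remained, the share was 7.09% and 407 genes held 3 or more. With 200 bp on each side of the summit AP-1 was in 21.1% and ETS in 45.2% of members, with ratios to the weighted others of 1.24 and 1.28. Fewer peaks and stricter overlap leave fewer regions by construction, and the cause of the other shifts was not tested.

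Leaving out a library loosens the rule by construction. It gave 9187 to 17429 BPA-only and 4275 to 11396 control-only regions, a share of 15.9 to 27.7%, 4466 to 6451 host genes, 1034 to 2024 with 3 or more, a median G+C of 48.3 to 49.8%, 27.0 to 28.5% in first introns, AP-1 in 12.0 to 13.2% and ETS in 25.2 to 29.3%. The highest counts came without BPA 1 (17429) and without control 1 (11396). Added after seeing the data, the endothelial BPA-only share ran from 18.7% (50% overlap, 7.09% of all intronic regions) to 44.8% (without BPA 1, 27.7% of all), SOX from 3.86 to 5.35% and NFI from 14.3 to 16.1%.

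The lists have no depth, signal or control value at uncalled sites, and each group holds 2 mice of an outbred stock, so that animal, sex, batch and group cannot be told apart. No paired analysis was possible because no result comes from a test and the labels tie no control mouse to a BPA mouse.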
